A study of Saccharomyces cerevisiae with 1 sample.

Results

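Box C/D snoRNAs are short nucleolar RNAs that direct ribose methylation of rRNA. Each guide carries a stretch upstream of its box D or D′ that pairs with the pre-rRNA, and the methyltransferase Nop1 (fibrillarin in human), which works in a particle with Nop56, Nop58 and Snu13, modifies the rRNA nucleotide opposite the fifth base upstream of that box. The members described here are SNR13, SNR38, SNR48, SNR62, SNR63, SNR64, SNR65, SNR66, SNR67 and SNR68. They are the box C/D guides whose targets lie solely within a stretch of the 3′ part of the 25S rRNA, here from Um1888 to Gm2815. The guides of the SNR72 to SNR78 gene cluster were left out. So were SNR69 (target Cm2948) and SNR71 (target Am2946), whose targets lie further 3′. The members were taken by name, and all 10 were found among the 67 RNAs of the snoRNA table. Their targets run through domains IV and V of the 25S rRNA, where domain V carries the peptidyl transferase center.

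The measurements come from 1 CRAC library of Saccharomyces cerevisiae strain BY4742, the untagged control of an experiment on the DEAD-box protein Dbp6. In CRAC, RNA is linked to proteins in living cells by UV light, and the fragments that stay with a tagged protein through its purification are copied to cDNA and sequenced. BY4742 carries no tag, so its fragments give the background of the purification. The cells had grown to an optical density of 0.6 in minimal medium lacking tryptophan, with glucose, and the cDNA received 16 cycles of PCR. The library has no replicate and its number of reads is unknown, so the values have neither a standard deviation nor a counting interval, and none of the differences given here was tested. Values on snoRNAs are hits per 1000000 reads (RPM), a scale on which all snoRNAs together had 30680 RPM (3.07%) and rRNA had 703741 RPM. The amount of each snoRNA in the cells was not measured here, so abundance and recovery in the purification cannot be told apart. Nor can hits on a mature snoRNA be told apart from hits on its precursor.

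The 10 guides direct 13 ribose methylations in the 25S rRNA. The stretches around the targets are printed as DNA letters of the deposited 25S pileup (the gene RDN25-1, 3396 nucleotides, chrXII:451786-455181, minus strand, R64). They read 5′ to 3′, with 10 nucleotides on each side and the methylated nucleotide in capitals. Pairing of the guides was not computed, so the stretches do not mark where a guide pairs. The base at each of the 13 positions was the one that the name of the modification gives (m marks the methylated ribose, and U is printed as T).
SNR62, Um1888, 25S nucleotides 1878 to 1898: gatagaataaTgtagataagg
SNR63, Am2256, nucleotides 2246 to 2266: ggcgggagtaActatgactct
SNR13, Am2280 and Am2281, nucleotides 2270 to 2291: aaggtagccaAAtgcctcgtca
SNR64, Cm2337, nucleotides 2327 to 2347: ttcccactgtCcctatctact
SNR65, Um2347, nucleotides 2337 to 2357: ccctatctacTatctagcgaa
SNR66, Um2417, nucleotides 2407 to 2427: ctgttgagctTgactctagtt
SNR67, Gm2619, nucleotides 2609 to 2629: agtttggctgGggcggcacat
SNR68, Am2640, nucleotides 2630 to 2650: ctgttaaacgAtaacgcagat
SNR67, Um2724, nucleotides 2714 to 2734: gattttgattTtcagtgtgaa
SNR48, Gm2791 and Gm2793, nucleotides 2781 to 2803: tttgaggctaGaGgtgccagaaa
SNR38, Gm2815, nucleotides 2805 to 2825: gttaccacagGgataactggc
SNR13, SNR48 and SNR67 have a pair of targets each. Those of SNR13 are neighbours, those of SNR48 are separated by a single nucleotide, and those of SNR67 lie in separate stretches. The stretches of SNR64 and SNR65 overlap, and the target of SNR65 is the last nucleotide printed for SNR64.

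Hits on the guides were very uneven. SNR38 had 1300 RPM, SNR48 had 527 RPM and SNR63 had 484 RPM. These 3 guides held 2311 RPM, or 74.1% of the 3119 RPM on all 10, and SNR38 alone held 41.7%. SNR67 had 234 RPM and SNR65 had 188 RPM, on either side of the table's median of 219 RPM. SNR68 had 122 RPM, SNR66 had 104 RPM, SNR13 had 92 RPM and SNR62 had 68 RPM. SNR64, the guide for Cm2337, is listed at 0 RPM. The lowest 5 members, SNR64 included, held 386 RPM, or 12.4% of the hits on the 10 guides. Among the 9 members above 0, the highest value was 19.1 times the lowest.

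**Figure D1:**
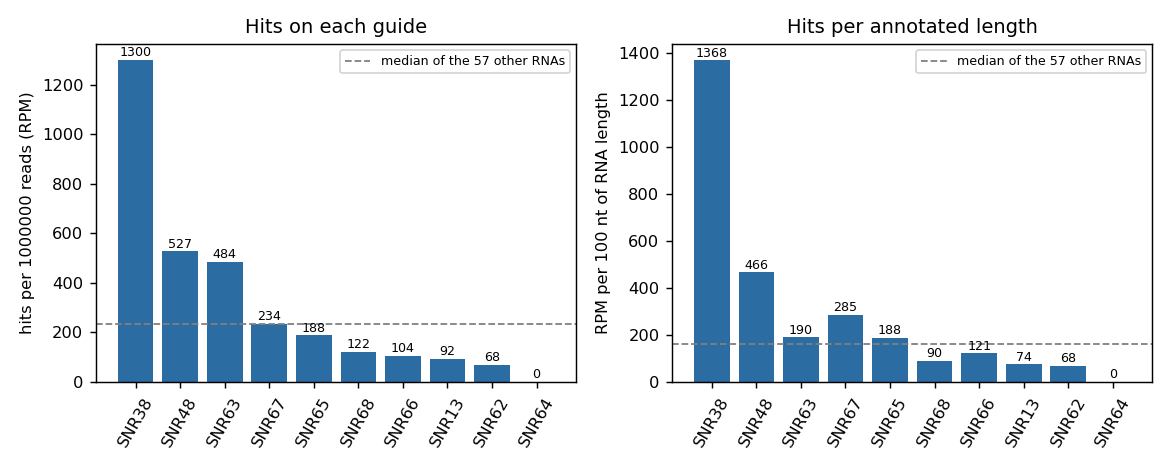
Hits on each of the 10 guides in the untagged control library, as RPM (left axis panel) and as RPM per 100 nucleotides of annotated RNA length (right axis panel), with the median of the other RNAs of the table as a dashed line (233 RPM and 159.5 RPM per 100 nucleotides). Each bar is 1 value without a replicate. SNR38 stands above the other guides on both scales, and SNR64 is at 0.

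A longer RNA can yield more fragments, so levels of different snoRNAs were compared per length. RefSeq gives the members lengths from 82 nucleotides (SNR67) to 255 (SNR63). Per 100 nucleotides, SNR38 had 1368 RPM and SNR48 had 466, a ratio of 2.93. SNR67 followed with 285 RPM per 100 nucleotides, ahead of SNR63 with 190 and SNR65 with 188. SNR66 had 121, SNR68 had 89.7, SNR13 had 74.2 and SNR62 had 68.0 RPM per 100 nucleotides. Length therefore changed the order in the middle of the list, where SNR63, by far the longest guide, came after SNR67, the shortest, and SNR68 came after SNR66. The spread was as wide as in RPM, with a ratio of 20.1 between SNR38 and SNR62 per 100 nucleotides. Across the 9 members above 0, Spearman's rho between RPM and length was -0.03, and across the 67 RNAs it was -0.28. All points come from the same library, and the RNAs are not independent replicates.

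By RPM, SNR38 ranked 6 of the 67 RNAs, between SNR52 (1590 RPM) and SNR47 (1090 RPM), which both guide a methylation in each of the 18S and 25S rRNAs. SNR48 ranked 16 and SNR63 ranked 18, with SNR77 (491 RPM) between them and SNR78 (530 RPM) just above SNR48. SNR67 ranked 32, within 1 RPM of NME1 (235 RPM, the RNA of RNase MRP) above it and of SNR72 (233 RPM) below it. SNR65 ranked 35, between SNR32 (219 RPM) and SNR73 (181 RPM). The next 3 members were close to their neighbours as well. SNR68 ranked 47 between SNR74 (132 RPM) and SNR24 (115 RPM), SNR66 ranked 50 between SNR59 (113 RPM) and SNR9 (96 RPM), and SNR13 ranked 52 between SNR9 and SNR17B (85 RPM). SNR62 ranked 59, between SNR82 (70 RPM) and SNR4 (55 RPM). SNR64 held the last rank, below SNR33 and SNR191 with 1 RPM each. It is the only RNA of the table listed at 0, and the next value above those of SNR33 and SNR191 is 10 RPM. Without the depth of the library, neighbours that differ by a few RPM cannot be placed in order.

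As a group, the members received fewer hits than their number in the table. They make up 14.9% of the RNAs listed and held 10.2% of the snoRNA hits, or 5.93% without SNR38. Their median was 155 RPM, against 233 RPM for the other 57 RNAs, a ratio of 0.665. Per length the medians were close, at 154.5 RPM per 100 nucleotides for the members and 159.5 for the other 57 RNAs (ratio 0.968). The other RNAs include 20 box H/ACA snoRNAs, the guides of pseudouridylation, which are longer (median length 206.5 nucleotides, against 100.5 for the members).

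Set against snoRNAs of their own class, the members were on the low side. The median per 100 nucleotides was 154.5 RPM for the members and 317 RPM for the other 36 box C/D snoRNAs, a ratio of 0.487. Of the members, 2 of 10 (SNR38 and SNR48) lay above the median of these 36. The members' median was also 0.420 times that of the 16 other guides with targets in the 25S rRNA alone (368 RPM per 100 nucleotides). These 16 include SNR69, SNR71 and guides of the left-out cluster such as SNR75. The 4 guides that target both rRNAs (SNR40, SNR47, SNR51 and SNR52) had a median of 1076, and the 11 guides for 18S alone had 289. The members' median was 3.29 times that of the box H/ACA snoRNAs (47.0 RPM per 100 nucleotides). Without division by length the medians were closer, at 155 RPM for the members and 114 RPM for the box H/ACA snoRNAs. The 10 members and the 20 box H/ACA snoRNAs held similar sums, 3119 and 3168 RPM. Relative to the median of all 67 RNAs, 159.5 RPM per 100 nucleotides, 5 of 10 members, 27 of the 36 other box C/D snoRNAs and 1 of 20 box H/ACA snoRNAs lay above it. By RPM, 4 members, 25 other box C/D snoRNAs and 3 box H/ACA snoRNAs lay above the table's median. These groups overlap widely, as the other box C/D snoRNAs ranged from 18.4 to 3113 RPM per 100 nucleotides.

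**Figure D2:**
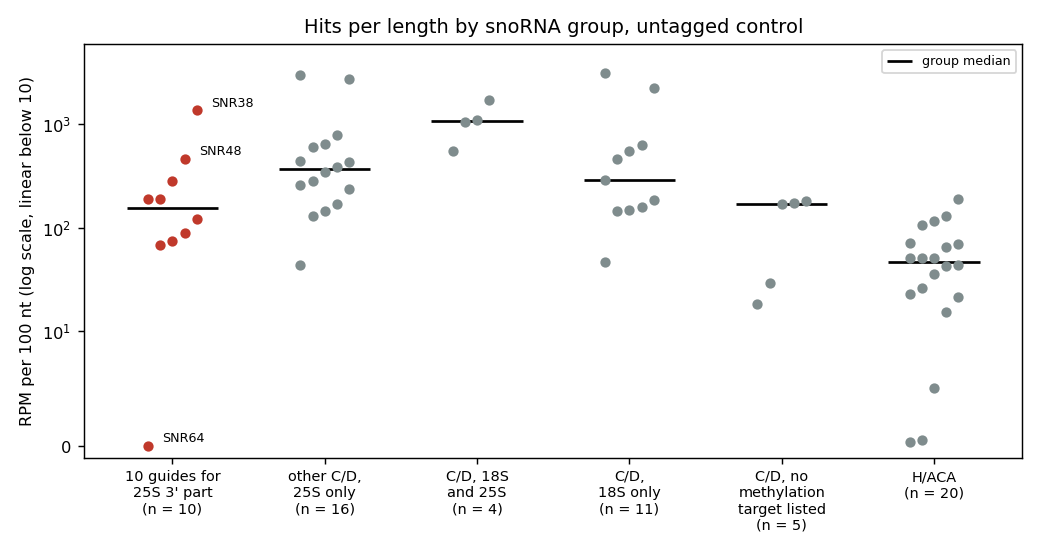
RPM per 100 nucleotides of RNA length for each snoRNA (points) and the group medians (lines) in the untagged control library, on a log axis that is linear below 10; NME1 is not plotted. The members (red) have a median of 154.5, below the 368 of the other box C/D guides for 25S alone and above the 47.0 of the box H/ACA snoRNAs.

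SNR38, the member with the most hits, is encoded within a protein-coding gene. It lies at chrXI:283185-283279 on the plus strand, inside the intron of TEF4, which encodes a subunit of translation elongation factor eEF1B and spans chrXI:282891-284455 on the same strand. SNR38 begins 294 nucleotides after the annotated start of TEF4. Of the 67 RNAs, 7 lie within the span of a protein-coding gene, all on the strand of their host, and SNR38 is the only member among them. Per 100 nucleotides, SNR38 had 1368 RPM, SNR54 (in IMD4) had 458 and SNR39 (in RPL7A) had 345. The others had 145 for SNR59 (in RPL7B), 129 for SNR24 (in ASC1), 44.1 for SNR18 (in EFB1) and 0.365 for SNR191 (in NOG2). SNR38 was thus 2.99 times the next of them, and the values of these 7 RNAs ran from 0.365 to 1368. The lowest, SNR191, is a box H/ACA snoRNA, and the box C/D snoRNAs among them ran from 44.1 to 1368. Outside the intron-encoded group, 5 box C/D snoRNAs exceeded SNR38 per length, with SNR128 (U14, needed for processing of the 18S rRNA) the highest of the table at 3113 RPM per 100 nucleotides.

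None of the other 9 members lies within the span of a protein-coding gene. SNR48, the guide for Gm2791 and Gm2793, lies at chrVII:609584-609696 on the plus strand between SPR3 and ERG25, 482 and 867 nucleotides away. SNR63, the guide for Am2256, lies at chrIV:323217-323471 on the minus strand, 228 nucleotides from RPL31A, a gene for a ribosomal protein on the other strand. SNR65, the guide for Um2347, lies at chrIII:177183-177282 on the plus strand, 217 nucleotides from RPS14A, also a ribosomal protein gene on the opposite strand. These 3 guides had between 188 and 466 RPM per 100 nucleotides.

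SNR67 and SNR66 each have another RNA of the table as their neighbour on the same strand. SNR67, the guide for Gm2619 and Um2724, lies at chrV:61352-61433, and SNR53, a guide for the 18S rRNA made from the same precursor transcript, starts 265 nucleotides downstream. SNR67 had 234 RPM and SNR53 had 263 RPM. Per 100 nucleotides, SNR67 was 0.988 times SNR53. Some other snoRNAs known to share a precursor differed widely. SNR128 had 3113 RPM per 100 nucleotides and SNR190 had 173, while SNR41 had 2274 and SNR70 had 47.0. Others were close, as SNR77 (558) and SNR78 (609) of the SNR72 to SNR78 cluster. These pairs were chosen after their values were seen. SNR66, the guide for Um2417, lies at chrXIV:586090-586175, 163 nucleotides downstream of NME1. It had 104 RPM, against 235 RPM on NME1, but per 100 nucleotides its level was 1.75 times that of NME1, which is longer.

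The members with fewer hits are found at separate places in the genome. SNR68, the guide for Am2640, lies at chrIX:97111-97246 on the plus strand, 148 nucleotides upstream of FLX1. SNR13, the guide for Am2280 and Am2281, lies at chrIV:1402919-1403042 on the plus strand between RPL27B and TRS31, which are also on the plus strand. SNR62, the guide for Um1888, lies at chrXV:409765-409864 on the minus strand, 104 nucleotides from CUE5. SNR64, the member at 0, lies at chrXI:38811-38911 on the plus strand between TRP3 and UBA1, 657 and 251 nucleotides away. It is annotated at 101 nucleotides, which is within the lengths of the members that had hits, and no gene of the annotation contains it. Genes that overlap only a part of a member were not looked for.

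Ordered by the place of their first target along the 25S rRNA, the members did not increase steadily, but the highest values lay at the 3′ end of this order. From the 5′ end, RPM per 100 nucleotides was 68.0 for SNR62, 190 for SNR63, 74.2 for SNR13 and 0 for SNR64. It went on with 188 for SNR65, 121 for SNR66, 285 for SNR67 and 89.7 for SNR68. Among the members, the most 3′ targets belong to the guides with the most hits, SNR48 (466) and SNR38 (1368). The 4 guides with targets from Gm2619 on had a median of 376 RPM per 100 nucleotides, and the 6 with targets upstream of it had 97.6. This division was chosen after the values were seen. Its sides overlap, as SNR68 (89.7) was below SNR63 (190), SNR65 and SNR66. SNR64 and SNR65, whose targets lie 10 nucleotides apart, had 0 and 188 RPM. Guides that are not members were left out of this order. Of these, SNR75 (Gm2288) had 2734 RPM per 100 nucleotides, while SNR71 (Am2946) had 444 and SNR69 (Cm2948) had 391.

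**Figure D3:**
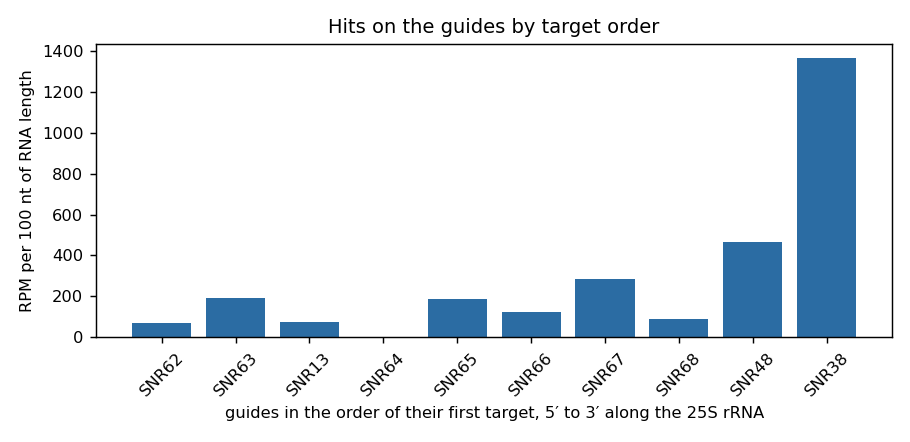
RPM per 100 nucleotides of RNA length for the 10 guides in the untagged control library, ordered by their first target from 5′ to 3′ along the 25S rRNA. The bars do not increase steadily, but the 4 guides from SNR67 on have a median of 376 and the 6 before them 97.6, and the last 2 guides, SNR48 (466) and SNR38 (1368), are the highest.

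The pileup of the same library was read at the target nucleotides. It gives hits per 100000 reads, where a read adds 1 hit to each nucleotide that it covers. Across the 3396 nucleotides the median was 170 hits. The 13 targets ranged from 17 to 221 hits with a median of 104, and 10 of them lay below the 25S median. The lowest were Am2640, the target of SNR68, with 17 hits, Um1888 (SNR62) with 26 and Gm2815 (SNR38) with 36. The only targets above the median were Um2724 (SNR67) with 221 hits and the pair of SNR48, Gm2791 with 211 and Gm2793 with 179. Gm2619, the other target of SNR67, had 158 hits, and both targets of SNR13 had 131. Cm2337 had 104 hits, although its guide SNR64 is at 0. Um2417 (SNR66) had 65 hits, Am2256 (SNR63) had 59 and Um2347 (SNR65) had 58.

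For comparison, the 23 other ribose-methylated nucleotides of the 25S rRNA that were looked up had a median of 119 hits, with 13 of 23 below the 25S median, and ranged from 27 to 11168 hits. A guide with many hits of its own did not always have a target with many hits. SNR38 had the most hits of the members and its target had 36. Over the 10 guides, Spearman's rho between RPM and the mean hits on the targets was 0.10, a description of 1 library.

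Over the printed stretches, mean hits ranged from 0.232 times the 25S median at Am2640 to 7.66 times at Gm2619, with a median of 0.561 over the 11 stretches. The value at Gm2619 comes from the 5′ edge of its stretch, where hits reached 5251 on the flank of a large peak, while the methylated nucleotide itself had 158. The other stretches were flat by comparison. Their highest values lay between 69 hits, in the stretch of Am2640, and 232 hits, in that of Um2724. The lowest value in any of the 11 was 8 hits, reached 9 nucleotides downstream of Um2417, which itself had 65. The stretches of SNR64 and SNR65 share nucleotides, so their values are not separate measurements.

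**Figure D4:**
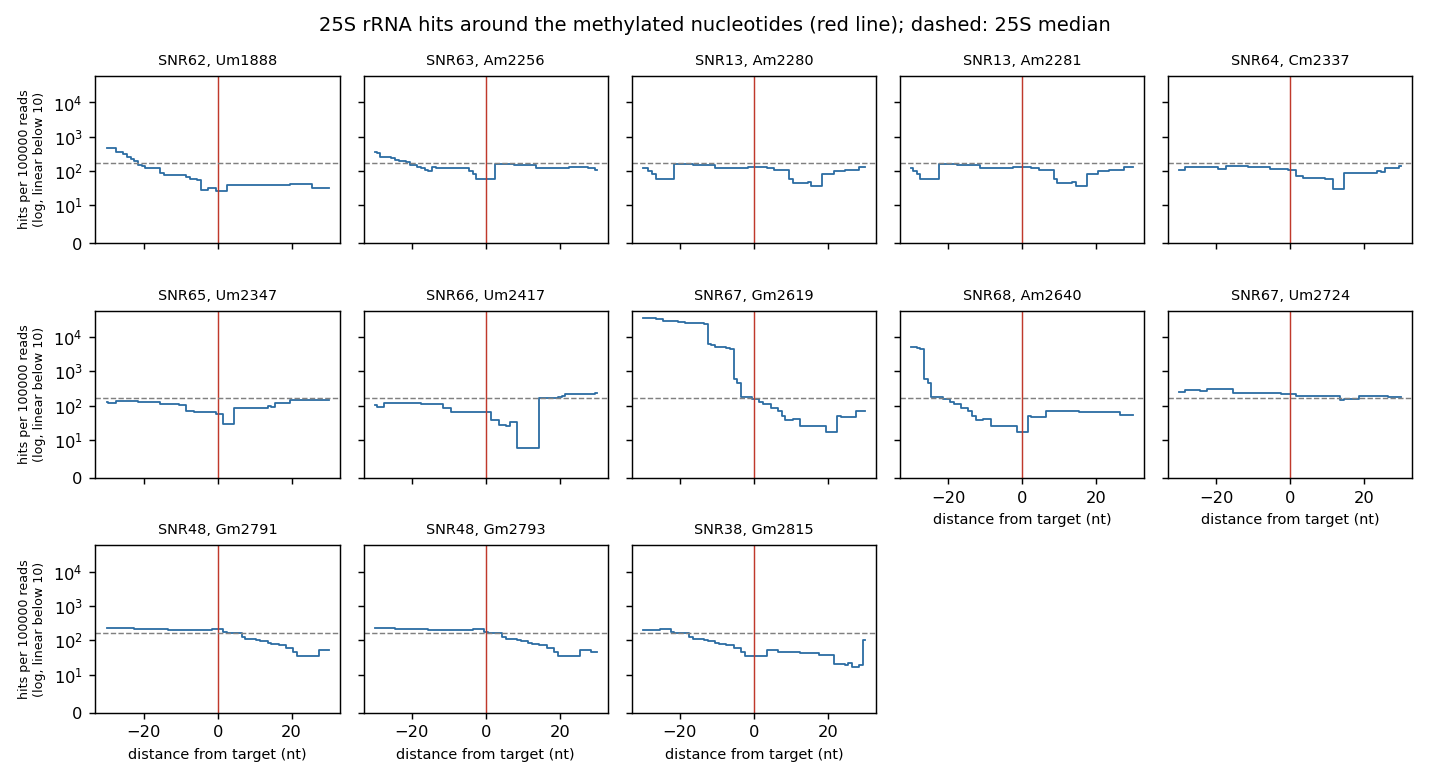
Hits per 100000 reads on the 25S rRNA (log axis, linear below 10) against the distance in nucleotides from each of the 13 methylated nucleotides (red line) in the untagged control library; the dashed line is the 25S median of 170 hits. Upstream of Gm2619 and Am2640 the profile climbs into a large peak, and at the 13 targets themselves it lies between 17 and 221 hits.

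Substitutions and deletions, which in CRAC can mark linked nucleotides, were few at the target nucleotides themselves except at Am2281. Here 20 of 131 hits carried a substitution (15.3%) and none a deletion, a higher share than at 98.6% of the 642 A nucleotides in the 25S rRNA that had 100 hits or more. At Am2280, the other target of SNR13 next to it, 1 of 131 hits was changed (0.763%). Other nucleotides of the printed stretches, which are not targets, reached higher shares. The nucleotide 1 downstream of Am2256 (SNR63) had 34 changes in 59 hits (57.6%), that 6 upstream of Am2640 (SNR68) had 13 in 26, and that 3 upstream of Gm2815 (SNR38) had 13 in 46 (28.3%). Around Am2281, the next highest shares were 12.7% at 10 nucleotides upstream (15 changes in 118 hits) and 10.4% at 3 upstream (13 in 125). Am2281 was the most changed of the 13 targets, but not of the stretches around them. The nucleotides with the highest shares had fewer than 100 hits, and their shares are the least precise. Whether any changed nucleotide was a linked one was not tested in this untagged library. Modifications other than ribose methylation were not looked up in the stretches, so a changed nucleotide that is not a target may still be modified.

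At the remaining targets, Cm2337 had 2 changes in 104 hits (1.92%) and Gm2791 had 3 in 211 (1.42%). Gm2619 and Um2724, both guided by SNR67, had 1 change each, or 0.633% and 0.452%. No change was listed at 7 of the 13 targets, 6 of which had fewer than 100 hits, where a low share would not be seen. None of the 13 had a deletion. Summed over the 13 targets, 28 of 1396 hits were changed (2.01%), and 0.632% without Am2281. Summed in the same way, the 23 other ribose-methylated nucleotides had 0.692%. Of these, Cm2197 alone held 75 of 122 changes and 11168 of 17623 hits. The median share among the 2374 nucleotides that had 100 hits or more was 0.323%. This median is taken over single nucleotides, so it is not on the same measure as the summed shares.

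**Figure D5:**
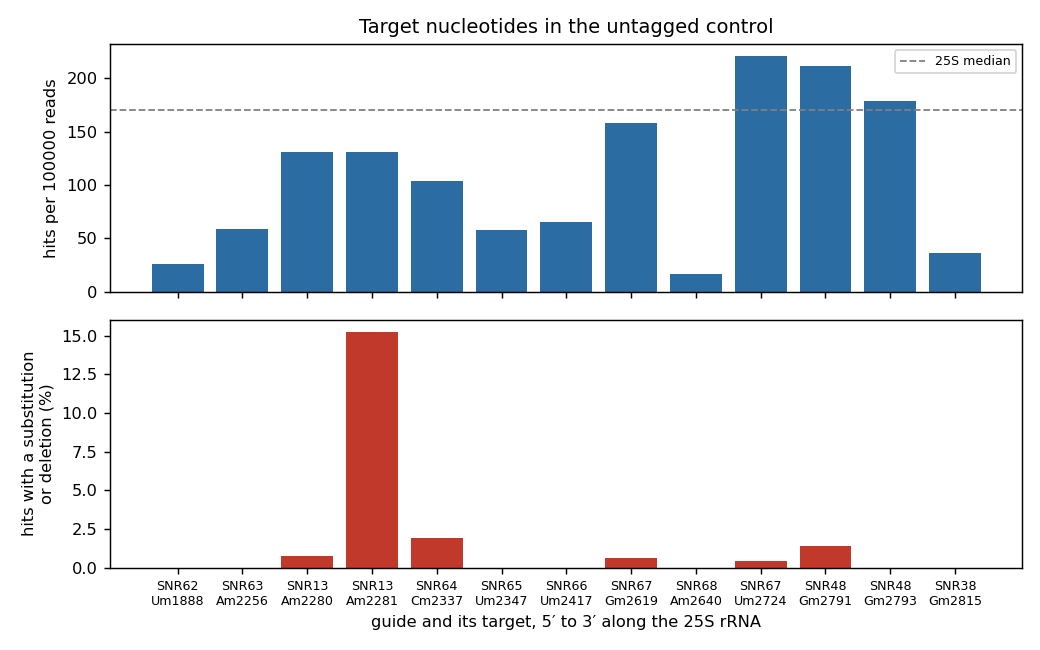
Hits per 100000 reads (upper axis panel, dashed line at the 25S median of 170) and percent of hits with a substitution or deletion (lower axis panel) at the 13 target nucleotides, in 25S order, in the untagged control library. Only Um2724, Gm2791 and Gm2793 exceed the median, and Am2281 has the highest share of changes, 15.3%.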

How the data were processed

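The authors trimmed and filtered the MiSeq reads with Flexbar, aligned them with Novoalign to the yeast genome (R64 per the submitters' processing notes) and used pyCRAC for counting. The authors deposited snoRNA and RNA class hits as RPM, in whole numbers, and a 25S rRNA pileup per 100000 reads, which the authors deposited as whole numbers and which is treated as a score. The methods name a setting of 1000000 in the read counter and a limit of 100000 in the pileup tool. The files do not show if the values were scaled or come from that many reads, so depth is unknown, and hits from PCR copies are not independent molecules. The series' design text names a different tagged protein than its title.

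From these files, ranks, shares, medians and RPM per 100 nucleotides were computed, the last with gene lengths of RefSeq's R64 table, in which all 67 names matched a symbol. Strands were read from the systematic names. Sequences of the snoRNAs were not used here, so guide pairing was not computed as planned. The target nucleotides came from textbook knowledge instead, and all 36 looked up had the stated base in the pileup. Percent changed needed at least 10 hits. Reads of the 2 copies of the 25S gene in RefSeq are not told apart. With 1 library no test was run. All 10 members are named, with their neighbours in rank and in the genome, the highest RNA and, chosen after their values were seen, the RNAs of the other host genes, both RNAs at 1 RPM, Am2281 and the 4 guides for both rRNAs. The members and comparison lists were chosen with earlier results of these data known. Alternatives covered the total, the rows included, length, windows, background and kind of change. The functions were tested on 20 simulated tables and pileups and recovered the known values in 20. Software was pandas 2.3.3 and numpy 2.4.6 under Python 3.11.15, with matplotlib 3.10.9 for plots.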

Additional observations from a re-analysis of the deposited data

How the results depend on the processing

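With 1 library of unknown depth, a value was taken as unchanged only where its first 3 significant digits were. Beyond what each setting does by construction, causes were not tested. The members' share of snoRNA hits, 10.2%, was 11.4% with box C/D snoRNAs alone in the total, 11.7% without SNR128, 0.312% of all RNA classes, 5.93% without SNR38 and, without NME1, unchanged to 3 digits. Their median of 155 RPM was 188 without SNR64 and 122 without SNR38. Its ratio to the median of the other RNAs, 0.665, was 0.434 against other box C/D snoRNAs, 0.446 against those with 25S targets alone, 0.968 per 100 nucleotides and 0.807 without rows at 0. It stayed below 1 in each. The share of SNR38 in the members' hits, 41.7%, was 48.0% per 100 nucleotides. Ranking per length moved 8 of 10 members, by up to 11 places, of which 7 moved up and 1, SNR63, moved down. SNR38 and SNR64 kept theirs.

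The median ratio of the target stretches to the 25S median was 0.561. It was 0.572 with stretches 10 nucleotides wider on each side and 0.612 at the methylated nucleotides alone. Against the median of the part of the 25S that holds the targets it was 0.727, and against the 25S mean it was 0.0616. The share of changed hits at the targets, 2.01%, came from substitutions, and was 0 for deletions alone. The median of the highest share within 1 nucleotide of each target was 1.42%. Chosen after seeing the data, targets with at least 100 hits gave 2.47%, and all without Am2281 gave 0.632%. No paired analysis was possible because only a single library was analysed, which also leaves no replicate to omit.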
